A study of Mus musculus with 13 samples.

Results

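The interleukin-23 and interleukin-17 ligand-receptor circuit was followed through 9 genes of the 55353 listed in the count files: the ligand subunits Il23a, Il12b and Il12a, the receptor gene Il23r, the ligands Il17a and Il17f, and the receptor genes Il17ra, Il17rc and Il17re. The genes were chosen by name and function, and their raw counts were read in every barcode with at least 1500 unique molecular identifiers (UMIs), by cell type and by day of diet. In all, 95563 cells passed, and they held 74830 UMIs of the 9 genes. The study fed male C57BL/6J mice, 6 to 12 weeks old by its Methods, chow with 3,5-diethoxycarbonyl-1,4-dihydrocollidine (DDC), a porphyrinogenic compound that causes cholangitis, and profiled liver cells by droplet-based 3′ scRNA-seq. The atlas holds 12 libraries, 1 from each of 2 sorting schemes (protocols A and B) at D0, D3, D5, D9, D19 and D25, where D0 mice ate control chow, and 1 further protocol B library, STOP, came from mice that ate DDC for 18 days and then recovered for 7 days. In both protocols chosen populations were sorted and pooled at equal ratios. Protocol A took all viable cells and sorts for Cd45, Lyve-1, Pdpn, Epcam, Cd31 and retinoid autofluorescence, whereas protocol B took viable cells of a stellate cell preparation, Cd64-negative Itgax-positive leukocytes, and sorts for Epcam and Cd3e.

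A library is named here by day and protocol, as D0 A. The libraries fall into 4 stages, with 2 at steady state (D0), 4 at onset (D3, D5), 6 in progression (D9, D19, D25) and 1 in recovery. The library counted as D19 B carries day 18 in its group label. No label ties a library to an animal, so the p-values below measure the spread between libraries, which may be partly technical, and the sorts decide how many cells of each type a library holds. Library totals lay between 29307190 and 108602421 UMIs, cells per library between 1541 and 14764, and the median depth per cell between 3350 and 12013 UMIs. Cells were assigned to 19 types by clustering and marker genes, with the 9 genes left out of both steps, and 13.6% of the cells stayed in unnamed clusters. The marker lists gave the names, so the markers read in a type describe it and are no separate check. For example, 9 of 9 LSEC, 9 of 10 BEC and 14 of 14 macrophage markers were read in at least 10% of the cells so named. For the mature DC, γδT17 and neutrophil names these were 11 of 11, 8 of 9 and 6 of 10. Barcodes shared by a pair of libraries made up at most 0.519% of the smaller one. Levels are given in CPM, the UMIs of a gene over the summed UMIs of all genes in 1 type and library, times 1000000. A CPM over few cells carries a large counting error, and a type entered a test in a library only with at least 20 cells there.

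Interleukin-23 (IL-23) is a dimer of the p19 subunit, encoded by Il23a, and the p40 subunit, encoded by Il12b, and p40 also pairs with p35, encoded by Il12a, to form IL-12. Myeloid cells are the usual source of both, and IL-23 acts through a receptor of IL23R and IL12RB1 on type 17 lymphocytes, among them γδ T cells, which then make IL-17A and IL-17F. IL-17A and IL-17F signal through IL17RA with IL17RC on epithelium, endothelium, fibroblasts and myeloid cells and induce neutrophil-attracting chemokines and antimicrobial proteins, while IL17RE pairs with IL17RA to bind IL-17C.

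The genes lie on 5 chromosomes in GRCm38 with the GENCODE annotation. Il17a (chr1:20730905-20734496, plus strand) and Il17f (chr1:20777146-20790617, minus strand) are neighbours with 42649 bases between them. Il17re (chr6:113458484-113470758) and Il17rc (chr6:113471427-113483140) lie in tandem on the plus strand with 668 bases between them. Chromosome 6 also carries Il23r (chr6:67422932-67491855, minus strand) and Il17ra (chr6:120463247-120487559, plus strand). The cytokine subunit genes Il12a (chr3:68690644-68698547, plus strand), Il23a (chr10:128296139-128298752, minus strand) and Il12b (chr11:44400063-44414033, plus strand) are unlinked.

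The upstream sequences of Il17a, Il17f and Il23r are shown because they share a short motif, AGGTCA on either strand, known as a half-site of nuclear receptors. They are the 250 bases before each RefSeq transcript start (GRCm38.p6), read 5′ to 3′ on the strand of the gene, at chr1:20730655-20730904 for Il17a, chr1:20784271-20784520 for Il17f and chr6:67491856-67492105 for Il23r. Capitals mark the motif in either orientation.
Il17a: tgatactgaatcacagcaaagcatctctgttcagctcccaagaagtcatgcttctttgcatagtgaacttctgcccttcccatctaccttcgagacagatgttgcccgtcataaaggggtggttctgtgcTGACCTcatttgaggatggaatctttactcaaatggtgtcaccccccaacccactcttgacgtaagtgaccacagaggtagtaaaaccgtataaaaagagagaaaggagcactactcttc
Il17f: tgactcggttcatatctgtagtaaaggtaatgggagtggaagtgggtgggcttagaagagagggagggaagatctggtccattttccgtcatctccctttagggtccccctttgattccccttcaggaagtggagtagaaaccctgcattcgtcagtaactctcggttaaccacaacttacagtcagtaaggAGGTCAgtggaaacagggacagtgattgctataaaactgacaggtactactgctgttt
Il23r: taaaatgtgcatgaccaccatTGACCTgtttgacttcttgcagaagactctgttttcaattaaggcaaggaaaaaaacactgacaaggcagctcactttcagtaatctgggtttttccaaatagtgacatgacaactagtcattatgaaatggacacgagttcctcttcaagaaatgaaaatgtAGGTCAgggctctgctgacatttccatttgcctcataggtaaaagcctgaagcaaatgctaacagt
The motif began 120 bases before the start in Il17a, 58 in Il17f, and 229 and 66 in Il23r, and it occurred in 4607 of 32851 promoters of this length (14.0%). The RefSeq start of Il17f lies inside the GENCODE gene given above. Of the 9 genes, 7 had promoter entries, 8 promoters in all, and no entry of Il12a, Il12b, Il17rc or Il17re held these letters. The genes shown were thus picked by the motif, and Il17re, without it, was also read in γδT17-like cells, at 114 CPM. Il23a and Il17ra had no entry.

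The 9 genes were read in different sets of cell types, shown by the heat map of levels by type. By share of its UMIs in all 13 libraries, Il12b was led by mature DC-like cells (54.2%), Il12a by pDC-like cells (53.1%), Il23r by γδT17-like cells (74.2%) and Il17a by γδT17-like cells (50.5%). Il23a came mainly from other BEC-like cells, biliary epithelium outside the large duct-like cluster (41.9%), and neutrophil-like cells (29.8%). Large duct-like BEC held 43.9% of Il17re and other BEC-like cells 45.1%, and Il17rc was divided between other BEC-like cells (29.7%), LSEC-like cells (25.8%) and large duct-like BEC (12.9%). Il17ra was spread over all types, with macrophage-like cells (23.9%) and LSEC-like cells, the liver sinusoidal endothelium (17.1%), as its largest shares. Shares follow the number and depth of cells that the sorts supplied, whereas CPM do not depend on the number.

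**Figure D1:**
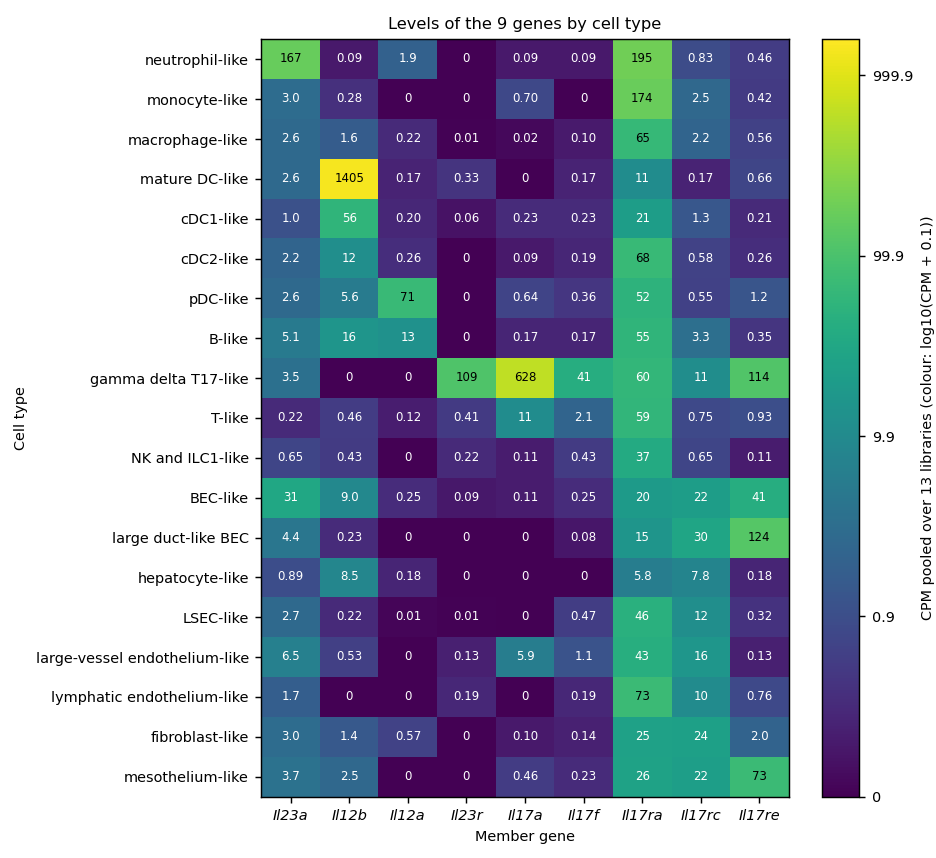
Level of each of the 9 genes (columns) in each of 19 cell types (rows), as CPM pooled over the cells of all 13 libraries and printed in each field; colour follows log10(CPM + 0.1), and brighter fields are higher. Il12b in mature DC-like cells, at 1405 CPM, and Il17a in γδT17-like cells, at 628 CPM, are the brightest fields, and Il17ra is read in every row. The rows T-like and BEC-like are the cells outside the γδT17-like and large duct-like clusters.

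Il23a, the subunit that defines IL-23, had its highest level in neutrophil-like cells, with 167 CPM pooled over libraries. Of 4214 such cells 12.9% had a UMI, against 1.26% of 24859 LSEC-like cells, at median depths of 2341 and 4408 UMIs. Other BEC-like cells, which are deep (median 14763 UMIs), reached 31.2 CPM and 25.1% of cells, and after thinning every cell to 1500 UMIs the shares were 10.1% in neutrophil-like and 4.11% in other BEC-like cells. Across the 8 atlas libraries with both types the neutrophil-like level was higher in 7, by 161 ± 108 CPM (SD, n = 8), a difference that did not pass after adjustment over the 36 neighbouring pairs of types tested (two-sided exact sign flips over libraries, p = 0.0156, adjusted p = 0.161). With 8 libraries no p under 0.00781 was possible in this test. Large duct-like BEC, with 4.39 CPM, and large-vessel endothelium-like cells, with 6.53 CPM, stood far below.

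In neutrophil-like cells Il23a was at 1.46 CPM in D0 A and 105 CPM in D0 B. It was at 6.36 in D3 A, 74.7 in D5 A and 295 in D5 B. During progression it was at 63.5 and 191 CPM at D9, 272 and 344 at D19 and 159.7 and 210.4 at D25, each time A before B. The protocol B library was the higher one on every day on which both were measured, and the DDC libraries ran from below the D0 B level to above it, so that the groups overlapped; D3 B had only 2 such cells. DDC exceeded steady state by 2.49 ± 1.0 on the log2 scale (SE; 95% interval 0.36 to 4.62), which edgeR's quasi-likelihood test did not call (adjusted p = 0.282), in a comparison where it called 0.0502% of 5972 genes. Without the filter on low counts the same gene passed (2.55, adjusted p = 9.61e-05), and over all alternatives the estimate ran from 0.95 to 8.53.

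Neutrophil-like cells fell into 2 clusters, and the level of Il23a went with their shares in part. One cluster of 1826 cells was led by Mmp9, the gelatinase B gene, Clec4e, a receptor for microbial glycolipids, and Cxcl2, and the other, of 2388 cells, by Retnlg, a gene of circulating neutrophils. The Mmp9-led cluster made up 1.05% and 22.2% of neutrophil-like cells at D0, 2.22% in D3 A, 8.63% in D5 A and 17.5% in D9 A, but 89.4% in D9 B, 90.5% in D5 B and 55.5% to 93.8% at D19 and D25. Within it, Il23a lay between 159 CPM in D9 A and 703 CPM in D5 A in the atlas libraries from D5 on, at 145 CPM in STOP, and at 0 in D0 A, D0 B and D3 A, which had 3, 12 and 3 such cells. Within the Retnlg-led cluster it was at 1.48 CPM in D0 A, 131 in D0 B, 6.48 in D3 A, 14.1 in D5 A, 42.9 in D9 A, 170.1 and 116 at D19, 38.4 and 18.8 at D25 and 138 in STOP, leaving out libraries with 5 such cells or fewer. Genes of the biliary epithelium were read in the same sums, with the 10 listed markers together at 0 to 149 CPM at D0, 19.1 to 147 at onset and 148 to 840.4 during progression, and their part in the Il23a level was not tested. Epcam, the epithelial adhesion molecule, was read in 2.14% of neutrophil-like cells with Il23a and in 1.77% of those without.

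**Figure D2:**
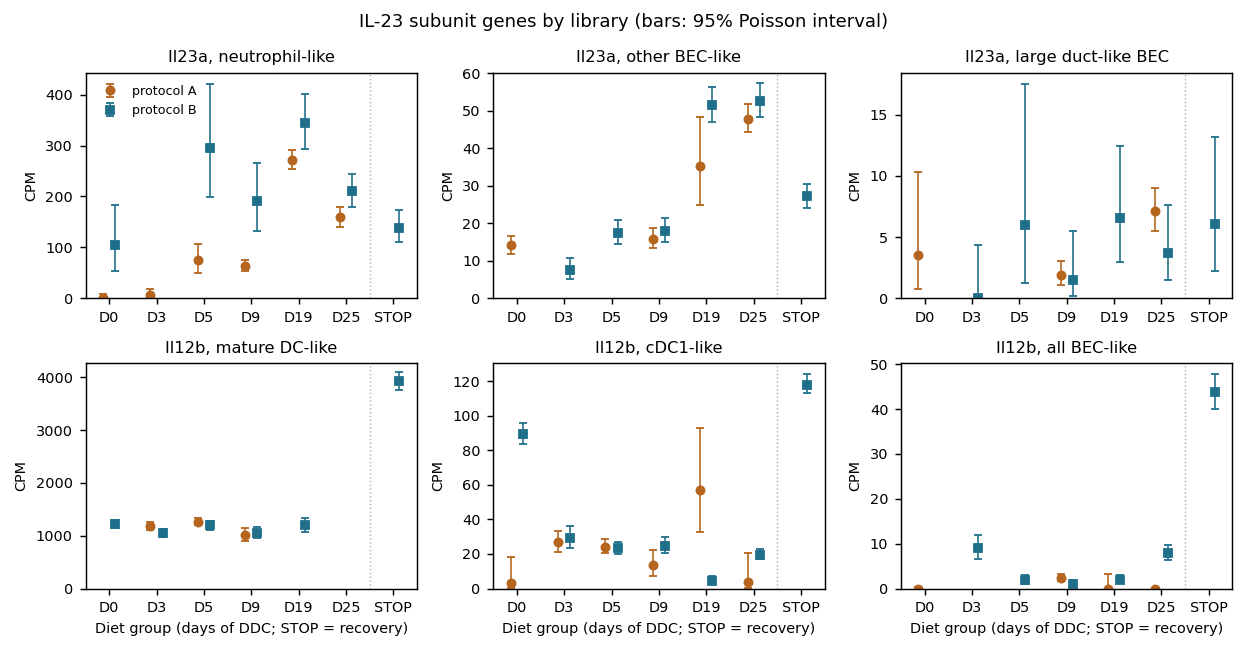
CPM by day of Il23a in neutrophil-like cells, large duct-like BEC and other BEC-like cells (upper panels) and of Il12b in mature DC-like, cDC1-like and all BEC-like cells (lower panels), 1 point per library with its 95% Poisson interval, which covers counting error only, circles for protocol A and squares for protocol B. Il23a in neutrophil-like cells runs from 1.46 in D0 A to 344 in D19 B, and Il12b in mature DC-like cells lies between 1019 and 1268 in the atlas libraries with at least 20 cells and at 3927 in STOP.

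In biliary epithelial cells only D0 A was usable at steady state. With protocol as a term, the fitted differences between DDC and D0 A in BEC therefore rest on D9 A, D19 A and D25 A. Il23a in other BEC-like cells was at 14.1 CPM in D0 A, 7.60 in D3 B and 17.5 in D5 B. It was at 15.9 and 18 CPM at D9, 35.3 and 51.6 at D19 and 47.9 and 52.7 at D25. D19 and D25 thus lay above every earlier library. Over both kinds of BEC the difference between DDC and D0 A was 1.01 ± 0.98 (log2, SE; 95% interval -1.14 to 3.16) and was not called (edgeR, adjusted p = 0.541), where 4.82% of 15914 genes were called. Large duct-like BEC stayed between 0 and 7.12 CPM in every library. In the 8 atlas libraries with both kinds, Il23a was higher in other BEC-like than in large duct-like cells by 2.78 ± 0.22 on the log2 scale (SE), given without a p-value because the clusters themselves were drawn from these cells, and 43.3% of 15067 genes differed between these 2 kinds at an adjusted p under 0.05.

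The clusters of BEC differed in level and in share by day. The cluster led by Cxcl5, Lcn2, Cldn4 and Mmp7, genes of a neutrophil chemokine, a siderophore-binding protein, a tight junction protein and a matrix protease, was 0.888% of BEC in D0 A and 11.5% in D3 B, and 44.0% to 74.7% at D19 and D25. Il23a in it was at 79.6 CPM in D0 A, from 3 UMIs in 7 cells, 27.7 in D3 B, 28.3 in D5 B, 22.5 and 28.8 at D9, 50.8 and 84.9 at D19, 64.2 and 77.2 at D25 and 103 in STOP. The other clusters varied. In the cluster led by Tff2, a trefoil factor gene, Il23a was at 5.98 CPM in D3 B, 15.2 in D5 B, 17.8 and 16.5 at D9, 36.7 in D19 B, 14.0 and 39.6 at D25 and 22.6 in STOP, leaving out libraries with 5 such cells or fewer. In a smaller one led by Ces1d and Sorbs2 it was at 9.16 CPM in D0 A, 4.13 in D3 B, 5.56 in D5 B, 12.6 and 2.60 at D9, 14.4 and 34.8 at D19, 20.2 and 83.9 at D25, the last from 15 cells, and 27.3 in STOP. A cluster led by the cell cycle genes Cenpf and Cdc20 was at 8.57 CPM in D0 A, from 1 UMI in 6 cells, 12.2 in D5 B, 14.8 and 7.42 at D9, 0 and 2.03 at D19, 27.6 and 24.6 at D25 and 21.3 in STOP. A cluster led by Gng13, Dclk1 and Trpm5, genes of tuft cells, was at 19.6 CPM in D0 A from 2 UMIs, 0 in D9 A and D19 B and 7.70 and 0 at D25. The cluster led by Ces1d and Pkhd1, which supplied 81.2% of BEC in D0 A at 14.4 CPM, lay between 0 and 13.5 CPM in the later atlas libraries, apart from D5 A with 1 UMI in 2 cells. Cells with Il23a among atlas BEC carried the neutrophil genes S100a8 in 18.6% and Csf3r in 6.87%, against 14% and 4.42% of those without, and Retnlg in 2.07% against 2.19%. Cells with Il23a were the deeper ones, with medians of 20393 and 13861 UMIs.

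Il12b, the subunit shared by IL-23 and IL-12, was concentrated in mature DC-like cells, the CCR7-positive migratory state of dendritic cells, with 1405 CPM and a UMI in 47.5% of 634 cells. LSEC-like cells, which should lack it, had a UMI in 23 of 24859 cells. After thinning, 36.8% of mature DC-like cells kept a UMI. In the 8 atlas libraries with at least 20 mature DC-like cells Il12b was at 1226 CPM in D0 B, 1181 in D3 A, 1053 in D3 B, 1268 in D5 A, 1195 in D5 B, 1019 in D9 A, 1057 in D9 B and 1200 in D19 B. The levels with and without DDC thus lay within the same narrow range, with a mean of 1150 ± 92.9 CPM (SD, n = 8). The remaining atlas libraries had 6 to 14 such cells and lay between 567 and 1914 CPM.

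cDC1-like cells, the cross-presenting conventional dendritic cells, held 23.4% of all Il12b UMIs at 55.9 CPM, where STOP supplied 1950 of their 3677 UMIs and the 12 atlas libraries averaged 26.6 ± 24.7 CPM (SD). Their level was 3.30 CPM in D0 A and 89.6 in D0 B, between 23.3 and 29.5 in the 4 onset libraries, and between 3.73 in D25 A and 57.2 in D19 A during progression. The D0 pair spanned the whole range of the DDC libraries. cDC2-like cells had 11.8 CPM and a UMI in 1.23% of 5433 cells. Mature DC-like exceeded cDC1-like cells in 8 of 8 libraries, by 1120 ± 88.8 CPM (exact sign flips, p = 0.00781, the smallest that 8 libraries allow, adjusted p = 0.141), and cDC1-like exceeded cDC2-like cells by 13.3 CPM (adjusted p = 0.652 in the same exact test).

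Over all dendritic types together (DC-like cells, which join mature DC-, cDC1-, cDC2- and pDC-like cells) Il12b was at 133 and 113 CPM at D0, 179 and 130.5 at D3, 147 and 52.6 at D5, 121 and 38.4 at D9, 236 and 32.0 at D19 and 56.4 and 41.1 at D25, A before B. The DDC libraries spanned both sides of the D0 values, and the difference was -0.66 ± 0.50 on the log2 scale (SE; edgeR, adjusted p = 0.526), where 0.805% of 13413 genes were called. The share of mature DC-like among DC-like cells was 17.9% and 4.87% at D0, 15.9% and 11.6% at D3 and 9.73% and 3.06% at D5. It was 8.12% and 3.40% at D9, 9.68% and 2.97% at D19 and 9.62% and 1.31% at D25. The level followed this share in part only, as D19 A and D25 A had near equal shares at 236 and 56.4 CPM. The sorts of the protocols differ in which dendritic cells they take.

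Il12b was also read in other BEC-like cells, and there it came from few, very deep barcodes with dendritic cell genes. It was at 0 in D0 A, 8.94 CPM in D3 B, 1.84 in D5 B, 2.37 and 1.02 at D9, 0 and 1.89 at D19, 0 and 7.85 at D25 and 43.8 in STOP, over both kinds of BEC. Within protocol A, that of D0 A, the DDC libraries were thus at 2.37, 0 and 0 CPM. Since D0 A held 0 UMIs, the DDC libraries together were at least 8.93-fold higher than a floor of 3 counts over that library, 0.290 CPM. The sum joins both protocols, so this bound does not separate protocol from the difference between DDC and D0 A. The difference was not called (edgeR, adjusted p = 0.315). In 10 cells lay 61% of the 729 UMIs of other BEC-like cells, with 120 UMIs in 1 of them. In the atlas 29 BEC had Il12b, at a median of 26631 UMIs, and of these 41.4% also had Xcr1, the cDC1 chemokine receptor, 51.7% Clec9a, the cDC1 receptor for dead cells, and 86.2% Ptprc, the pan-leukocyte gene. Among the 5330 BEC without Il12b these shares were 3.71%, 6.64% and 24.9% at a median of 15142 UMIs. In STOP the 55 BEC with Il12b had Xcr1 and Clec9a in 96.4% each, and the 527 without it in 23% and 26%. Whether such barcodes held more than 1 cell was not tested.

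Il12a, the IL-12 partner of p40, had its highest pooled level in pDC-like cells, the interferon-producing plasmacytoid cells, with 70.8 CPM and a UMI in 23.8% of 1871 cells, against 2 of 24859 LSEC-like cells. In libraries with at least 20 pDC-like cells it was at 49.3 CPM in D0 B, 23.6 in D3 B, 15.5 in D5 A, 52.9 in D5 B, 4.56 in D9 A, 90.5 in D9 B, 145 in D19 B and 61.1 in D25 B. The protocol A libraries were the lowest, and D0 B lay inside the range of the DDC libraries. B-like cells had 13.3 CPM, mature DC-like cells a single UMI in 634 cells. In the 4 libraries with enough of both types, pDC-like exceeded B-like cells in 2, by 8.69 ± 28.3 CPM (SD, n = 4; exact sign flips, adjusted p = 0.978), where no p under 0.125 was possible. In DC-like cells together the difference between DDC and steady state was -0.21 ± 0.83 (log2, SE; edgeR, adjusted p = 0.929).

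The subunits were rarely read in the same cell. Il23a and Il12b were both read in 57 of 95563 cells (0.0596%, exact 95% binomial interval 0.0452% to 0.0773%, counting error only). Of these, 29 were other BEC-like, 9 cDC1-like, 5 mature DC-like, 5 macrophage-like and 2 cDC2-like cells, and 7 lay in unnamed clusters. BEC with Il12b were very deep barcodes, most of them with Ptprc, as given above. Whether the BEC with both subunits held more than 1 cell was not tested. Thinned to 1500 UMIs, 1 cell kept both. No neutrophil-like cell had both, since 1 of 4214 had Il12b at all. Il12a and Il12b were both read in 11 cells, of which 2 were pDC-like and 1 was mature DC-like. Across the 19 types the levels of Il23a and Il12b had a correlation of -0.115, a description over types that share libraries.

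Il23r, the subunit that makes IL-23 recognition specific, was concentrated in γδT17-like cells, a cluster of 342 cells named by markers that include Trdc, Sox13, Blk, Cd163l1 and Maf. It was read in 31.3% of them, against 0.158% of 11407 other T-like cells and 1 of 24859 LSEC-like cells, at median depths of 3895, 3953 and 4408 UMIs. The other T-like cells include a cluster of 240 cells led by the endothelial genes Ptprb and Kdr and clusters of 573 and 100 cells with 6 and 5 of the listed natural killer markers, together 913 cells. In γδT17-like cells of protocol B it was at 51.1 CPM in D0 B, from 2 UMIs in 14 cells, 134 in D5 B, 121 in D9 B, 152 in D19 B, 81.4 in D25 B and 86.3 in STOP. Other T-like cells of the same libraries had 0 to 0.770 CPM. The levels of both groups did not overlap in any of these libraries. Within the 5 atlas libraries γδT17-like exceeded other T-like cells by 7.61 ± 0.37 on the log2 scale (SE), a description as the clusters were drawn from the same cells, and 18.2% of 10090 genes differed between them at an adjusted p under 0.05. BEC-like cells had 7 Il23r UMIs in 4522 cells, and large duct-like BEC, neutrophil-like, cDC2-like, monocyte-like and fibroblast-like cells had none, which in 4214 neutrophil-like cells allows up to 0.277 CPM.

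Il12rb1, which encodes the second receptor chain, was read together with Il23r in 24 cells, 19 of them γδT17-like (5.56% of that type). Its level was higher in γδT17-like than in other T-like cells by 2.35 ± 0.32 (log2, SE), whereas Il12rb2, the IL-12 specific chain, was lower by 4.32 ± 0.87. The 13 genes tested from a list of the type 17 lymphocyte program had a median difference of 3.87 against -0.13 over all genes, and several of them had served to name the cluster.

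Il17a, the main type 17 effector cytokine, was read in 26.6% of γδT17-like cells, 0.526% of other T-like cells and 0 of 24859 LSEC-like cells, which allows up to 0.0226 CPM there. In γδT17-like cells it was at 204 CPM in D0 B, from 8 UMIs, 1030 in D5 B, 146 in D9 B, 856 in D19 B, 919 in D25 B and 513 in STOP. D9 B lay below D0 B, and the other DDC libraries lay above it. In other T-like cells Il17a was at 5.20 CPM in D0 B, 0 in D3 B, 11.1 in D5 B, 5.14 in D9 B, 7.15 in D19 B, 10.3 in D25 B and 27.3 in STOP. γδT17-like cells exceeded other T-like cells by 5.95 ± 0.22 (log2, SE; a description as for Il23r).

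γδT17-like cells also made up more of the T-like cells with time in protocol B, from 0.914% in D0 B and 1.11% in D3 B to 1.95% in D5 B, 4.31% in D9 B, 3.39% in D19 B, 4.61% in D25 B and 2.29% in STOP. Over all T-like cells Il17a was at 0 and 7.31 CPM at D0, 0 and 4.10 at D3, 0 and 29.8 at D5, 169 and 11.4 at D9, 0 and 29.6 at D19 and 50.8 and 46.8 at D25, A before B. Protocol A had only 27 to 73 T-like cells per library, and its D9 A value rests on 29 UMIs. DDC exceeded steady state by 1.90 ± 0.96 (log2, SE; 95% interval -0.09 to 3.90), not called by edgeR (adjusted p = 0.315) in a comparison with 0.758% of 10817 genes called. Without the filter on low counts it passed (1.90, adjusted p = 0.00174). The other T class genes of the circuit were not called either, with Il23r at 1.44 ± 1.06 (edgeR, adjusted p = 0.509) and Il17ra at 0.87 ± 0.34 (edgeR, adjusted p = 0.195). Without the 3 clusters led by endothelial or natural killer genes, an alternative chosen after seeing the data, 261 genes were called in place of 82, and Il17a was at 2.06 (edgeR, adjusted p = 0.177).

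**Figure D3:**
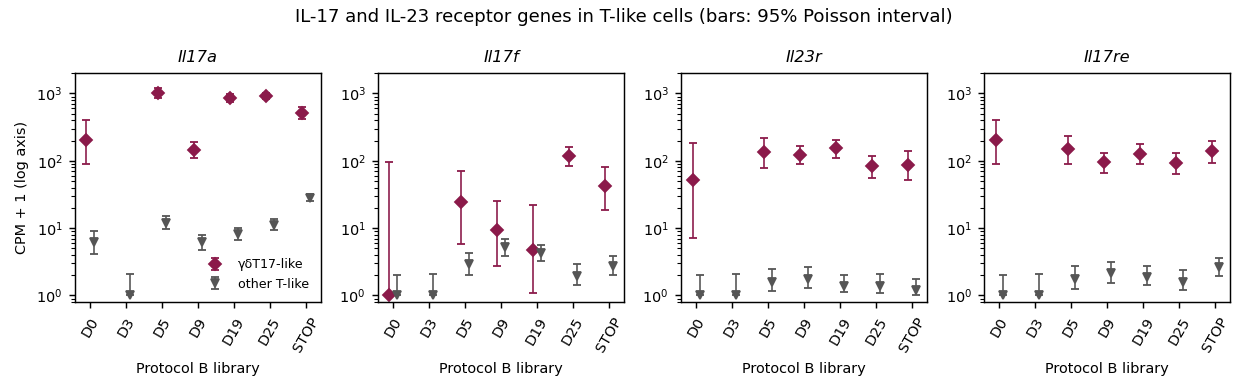
Il17a, Il17f, Il23r and Il17re in γδT17-like cells (diamonds) and other T-like cells (triangles) of the protocol B libraries, as CPM + 1 on a log axis by day, with 95% Poisson intervals. The γδT17-like points lie above the other T-like points for Il17a, Il23r and Il17re in every library with at least 10 γδT17-like cells, whereas for Il17f they lie at 0 in D0 B and 3.71 CPM in D19 B, beside 0 and 3.32 CPM in other T-like cells.

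Il17a in other T-like cells came mainly from 1 cluster. Of its 557 UMIs there, 527 lay in 49 cells of a cluster of 1053 cells led by Cd4, the co-receptor of helper T cells, and Cd40lg, the ligand of CD40. This cluster also held 95 of the Il17f UMIs, 12 of Il23r and 37 of Il17re. It was 1.17% of T-like cells in D0 B, 10.7% in D3 B, 5.27% in D5 B, 7.51% in D9 B, 11.3% in D19 B, 10% in D25 B and 14.1% in STOP. Its Il17a level was 80.5 CPM in D0 B, 0 in D3 B, 214 in D5 B, 64.6 in D9 B, 72.2 in D19 B, 123 in D25 B and 238 in STOP. The STOP value rests on 12 cells, 1 of which held 133 UMIs.

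Il17f, the close relative that forms dimers with IL-17A, was at 40.8 CPM in γδT17-like cells and 2.14 CPM in other T-like cells. In γδT17-like cells it was at 0 in D0 B, 23.6 CPM in D5 B, 8.27 in D9 B, 3.71 in D19 B, 116 in D25 B and 40.6 in STOP, where all but D25 B rest on 0 to 8 UMIs. Other T-like cells were at 0 in D0 B and D3 B, 1.90 in D5 B, 4.24 in D9 B, 3.32 in D19 B, 0.972 in D25 B and 1.74 in STOP. The excess of γδT17-like cells, 3.33 ± 0.52 (log2, SE), fell to 1.33 without D25 B. No T-like cell at D0 held a UMI of Il17f, so the DDC libraries together, at 3.70 CPM, were at least 4.84-fold higher than a floor of 3 counts over both D0 libraries. The test did not call it (edgeR, adjusted p = 0.129), except without the filter (adjusted p = 0.0162). Il17a and Il17f were read together in 30 cells, 17 of them other T-like and 12 γδT17-like.

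Il17ra, the receptor chain common to the family, was highest in neutrophil-like cells (195 CPM) and monocyte-like cells (174 CPM), followed by lymphatic endothelium-like (73.0), cDC2-like (67.6), macrophage-like (65.0), γδT17-like (59.8) and other T-like cells (58.6). Neutrophil-like and monocyte-like cells, the first pair in this order by mean, differed by -16.1 CPM (neutrophil-like minus monocyte-like) over the libraries with both (exact sign flips, adjusted p = 0.794), which turned to 60.9 CPM in cells gated on markers, and cDC2-like exceeded macrophage-like cells by 7.59 CPM (adjusted p = 0.652). Monocyte-like exceeded cDC2-like cells by 103 CPM in 6 of 6 libraries (adjusted p = 0.161 in the exact test), where no p under 0.0312 was possible. LSEC-like cells were at 46.1 CPM.

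Among the cell types tested, the fitted difference of Il17ra between D0 and DDC was the largest in LSEC-like cells. The level was 11.3 CPM in D0 A and 2.76 in D0 B. It was at 23 and 17.2 at D3 and 51.7 and 45.8 at D5. During progression it was at 54.2 and 79.8 CPM at D9, 54.3 and 64.7 at D19 and 90.2 and 88.4 at D25. All 10 DDC libraries lay above both D0 libraries, in a comparison with 0.0389% of 12867 genes called. The difference was 2.89 ± 0.61 on the log2 scale (SE; 95% interval 1.58 to 4.19, unadjusted p = 2.86e-04), and edgeR did not call it after adjustment (adjusted p = 0.102). DESeq2 called it (3.02, adjusted p = 1.20e-04), as did edgeR without the filter (2.90, adjusted p = 0.00223), and the estimate lay between 2.39 and 4.37 under every alternative. Those settings called 244 and 130 genes in LSEC-like cells, against 5 in the main fit. No fit with 1 library left out called Il17ra there.

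Progression libraries all lay above onset libraries in LSEC-like cells, at 71.9 ± 16.4 CPM (SD, n = 6) against 34.4 ± 16.9 (n = 4). An exact permutation of stage labels within protocol gave p = 0.0100, the smallest its 100 relabelings allow, and adjusted p = 0.340 over 34 pairs of gene and cell type. Macrophage genes in the same sums moved alongside, with the 14 listed markers together at 115 to 369.6 CPM at D0, 188 to 345 at onset and 329.5 to 998 during progression. The 10 neutrophil markers stood at 74.5 to 158, 101 to 172 and 119.5 to 169.6 CPM. Their part in the Il17ra level was not tested. Among atlas LSEC-like cells with Il17ra, 3.59% had the macrophage gene Adgre1 and 89.8% the LSEC scavenger receptor Stab2, against 2.46% and 80.3% of cells without, at medians of 6146 and 4071 UMIs.

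**Figure D4:**
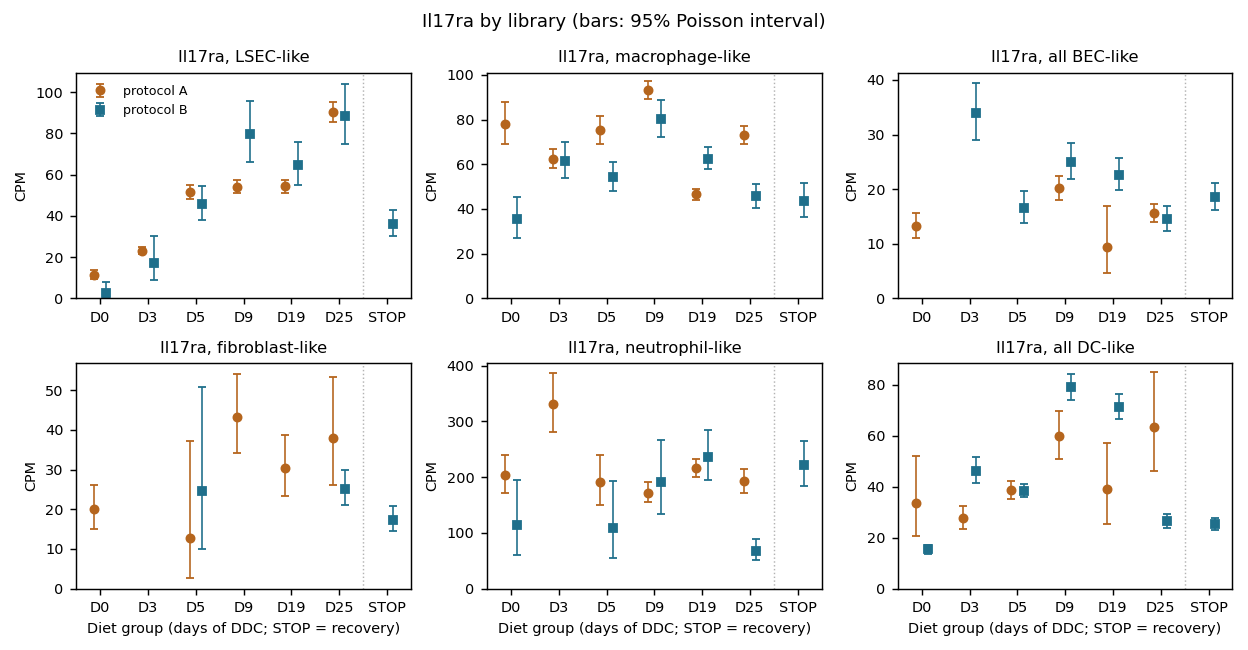
CPM of Il17ra by day in LSEC-like, macrophage-like, all BEC-like, fibroblast-like, neutrophil-like and all DC-like cells, 1 panel each with its own axis, 1 point per library with its 95% Poisson interval, circles for protocol A and squares for protocol B. LSEC-like cells run from 2.76 and 11.3 at D0 to 90.2 and 88.4 at D25, while neutrophil-like points at D0 lie among those of the later days, and of the macrophage-like points D0 A lies among them and D0 B, at 35.4, below.

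In none of the other types tested did every DDC library lie above every D0 library. In macrophage-like cells Il17ra was at 78.0 and 35.4 CPM at D0, 62.5 and 61.5 at D3, 75.1 and 54.2 at D5, 93.1 and 80.1 at D9, 46.6 and 62.5 at D19 and 73.0 and 45.7 at D25. The difference was 0.30 ± 0.24 (log2, SE; 95% interval -0.20 to 0.81; edgeR, adjusted p = 0.521), where 3.51% of 12575 genes were called. In neutrophil-like cells it was at 203 and 114 CPM at D0 and between 68.0 in D25 B and 331 in D3 A under DDC, a difference of 0.10 ± 0.44 (edgeR, adjusted p = 0.957). In BEC it was at 13.3 CPM in D0 A and between 9.44 and 33.9 under DDC (0.51 ± 0.47; edgeR, adjusted p = 0.522). In fibroblast-like cells it was at 20 CPM in D0 A, 12.7 and 24.7 at D5, 43.3 in D9 A, 30.3 in D19 A and 38.0 and 25.2 at D25 (0.91 ± 0.52; edgeR, adjusted p = 0.740). No gene was called in fibroblast-like cells by edgeR (0% of 12174 genes, with 837 at an unadjusted p under 0.05 and 12 called by DESeq2). In DC-like cells DDC exceeded steady state by 1.08 ± 0.39 (edgeR, adjusted p = 0.171). Whether the LSEC-like difference exceeded those of the other types was not tested.

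Il17rc, the chain that completes the receptor for IL-17A and IL-17F, was read at its highest levels in types of epithelium, mesenchyme and endothelium. It was at 29.8 CPM in large duct-like BEC, 24.2 in fibroblast-like, 22.1 in mesothelium-like, 22.0 in other BEC-like, 15.7 in large-vessel endothelium-like and 11.7 in LSEC-like cells. γδT17-like cells stood beside the last of these, at 11.2 CPM from 16 UMIs. Macrophage-like cells had 2.18 CPM and cDC1-like cells 1.29. Neighbours in this order did not pass the test, with 8.22 ± 9.75 CPM (SD, n = 5) between large duct-like BEC and mesothelium-like cells (exact sign flips, adjusted p = 0.652), where no p under 0.0625 was possible, and 3.99 ± 8.79 CPM (n = 6) between other BEC-like and fibroblast-like cells (exact, adjusted p = 0.794).

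By day, Il17rc in other BEC-like cells was at 37.0 CPM in D0 A, 21.6 in D3 B, 22.3 in D5 B, 27.8 and 13.7 at D9, 24.1 and 17.3 at D19 and 22.1 and 17.2 at D25. In large duct-like BEC it was at 49.5 CPM in D0 A and 19.9 to 31.6 in the DDC libraries. D0 A was the highest library in both kinds. Over both kinds the difference was -0.33 ± 0.29 (log2, SE; 95% interval -0.96 to 0.30; edgeR, adjusted p = 0.490). In LSEC-like cells Il17rc was at 22.6 and 12.0 CPM at D0, 11.8 and 11.5 at D3, 11.5 and 8.0 at D5, 12.4 and 8.94 at D9, 8.60 and 5.66 at D19 and 9.36 and 14.8 at D25. The difference there was -0.68 ± 0.29 (log2, SE; edgeR, adjusted p = 0.403). In fibroblast-like cells it was at 28.0 CPM in D0 A, 17 and 7.04 at D5, 21.9 in D9 A, 17.8 in D19 A and 25.3 and 26.4 at D25 (-0.27 ± 0.51; edgeR, adjusted p = 0.924). Large duct-like BEC exceeded other BEC-like cells by 0.61 ± 0.13 on the log2 scale within libraries, as a description.

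Il17re, the IL-17C receptor chain, was read mainly in BEC, mesothelium-like and γδT17-like cells. Large duct-like BEC, the cluster with Dmbt1, Muc4 and Sox17, had 124 CPM and a UMI in 76.5% of 1419 cells, other BEC-like cells 40.6 CPM and 42.1% of 4522, and neutrophil-like cells 0.462 CPM and 0.119% of 4214. γδT17-like cells reached 114 CPM and mesothelium-like cells 72.9 CPM. Large duct-like BEC were at 197 CPM in D0 A, 123 in D3 B, 97.7 in D5 B, 123 and 90.9 at D9, 75.7 in D19 B and 133 and 112 at D25. Other BEC-like cells were at 83.2 CPM in D0 A, 30.7 in D3 B, 26.8 in D5 B, 52.1 and 28.3 at D9, 24.1 and 34.3 at D19 and 39.8 and 28.7 at D25. The large duct-like level was the higher one in each library with both kinds, by 1.74 ± 0.12 on the log2 scale (SE, as a description), and D0 A was the highest library of each kind.

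Over both kinds of BEC the difference of Il17re between DDC and D0 A was -0.20 ± 0.43 (log2, SE; 95% interval -1.15 to 0.74; edgeR, adjusted p = 0.797). Large duct-like cells made up 7.87% of BEC in D0 A, 3.16% to 48.0% under DDC and 7.04% in STOP, so that the level over both kinds also moves with their mixture. Across neighbouring types in the order of means, mesothelium-like exceeded other BEC-like cells by 29.0 CPM in 6 of 6 libraries (exact sign flips, adjusted p = 0.161). Other BEC-like exceeded other T-like cells by 36.4 CPM in 9 of 9 (p = 0.00391, adjusted p = 0.141, exact). No p under 0.0312 was possible for the first pair and none under 0.00391 for the second. In γδT17-like cells Il17re was at 204 CPM in D0 B, 149 in D5 B, 93.7 in D9 B, 126 in D19 B, 93.0 in D25 B and 137 in STOP, and it exceeded the other T-like cells by 6.97 ± 0.35 (log2, SE, as a description). Cd3e was read in 4.49% of atlas BEC with Il17re and 4.13% of those without.

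**Figure D5:**
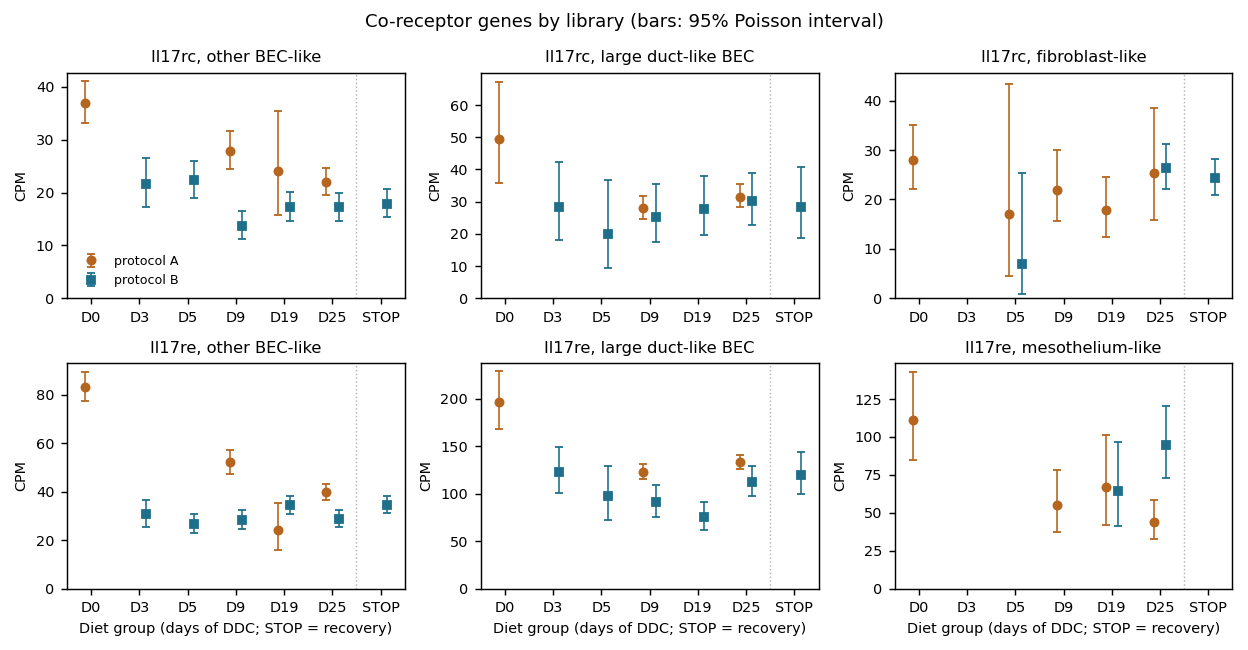
CPM by day of Il17rc in other BEC-like cells, large duct-like BEC and fibroblast-like cells (upper panels) and of Il17re in other BEC-like cells, large duct-like BEC and mesothelium-like cells (lower panels), 1 point per library with its 95% Poisson interval. Over the atlas libraries Il17re lies at 75.7 to 197 in large duct-like BEC and 24.1 to 83.2 in other BEC-like cells, whereas the ranges of Il17rc overlap more widely between them.

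Il17ra and Il17rc were read together in 1331 cells (1.39%), of which 371 were other BEC-like, 281 LSEC-like, 134 large duct-like BEC, 124 macrophage-like and 101 fibroblast-like cells. These made up 9.44% of large duct-like BEC, 8.20% of other BEC-like, 5.51% of fibroblast-like, 5.43% of mesothelium-like and 1.13% of LSEC-like cells. Il17ra and Il17re were read together in 928 cells (0.971%), 511 of them other BEC-like and 252 large duct-like BEC, and in 17.8% of large duct-like BEC, 11.5% of mesothelium-like, 11.3% of other BEC-like and 7.31% of γδT17-like cells. These shares depend on depth, which was highest in BEC, and thinned to 1500 UMIs they were 0.0408% and 0.0314% of all cells.

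Target genes of IL-17 were examined in the receivers with lists of genes chosen by function. In BEC all 26 listed targets were tested, of which 4 were higher and 1 lower under DDC, beside 4.82% of all genes called, with a median of 2.11 on the log2 scale against 0.04 over all genes, and every such comparison rests on D0 A alone at steady state. The make-up of BEC moved alongside, with the Ces1d- and Pkhd1-led cluster at 81.2% and the Cxcl5-led cluster at 0.888% in D0 A, as did the 11 mature DC markers, together at 311 CPM in D0 A, 532 to 580.4 at onset and 314 to 626 during progression, and their part in the target levels was not tested. Fitted differences rest on D9 A, D19 A and D25 A against D0 A, as protocol was a term. The ranges under DDC, and the bound for Ccl2, cover DDC libraries of both protocols. Cxcl2, a neutrophil chemokine, was at 39.8 CPM in D0 A and 235 to 826 in the DDC libraries (3.98 ± 0.78; edgeR, adjusted p = 0.0242). Timp1, a protease inhibitor, was at 0.677 against 4.47 to 22.3 CPM (4.63 ± 1.05; edgeR, adjusted p = 0.0360). Ccl7, a monocyte chemokine, was at 0.484 against 4.31 to 18.2 CPM (4.49 ± 1.10; edgeR, adjusted p = 0.0442). Ccl2, the related monocyte chemokine, had 0 UMIs in D0 A and 1.42 to 17.1 CPM under DDC, at least 35.6-fold more over the DDC libraries together than a floor of 3 counts (edgeR, adjusted p = 0.0354). Nfkbiz, an IκB protein that IL-17 signalling induces, fell from 782 CPM to 204 to 396 (-1.57 ± 0.23; edgeR, adjusted p = 0.0108). Without D25 A the 4 higher targets missed the threshold (edgeR, adjusted p = 0.0556 to 0.0763), as they did with Scrublet calls removed (0.0861 to 0.139), while Nfkbiz was called under each of its 15 alternatives. Of 15 alternatives Cxcl2 was called under 12, Timp1 under 10, Ccl2 under 9 and Ccl7 under 8, and leaving out any 1 of 4 libraries lost Ccl2 and any 1 of 5 lost Ccl7.

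Of the 22 genes of IL-23 and IL-17 signal transduction tested in BEC, Nfkbiz alone was called, a share near the 4.82% of all genes. From the type 17 program list, Rora, a nuclear receptor gene also expressed in epithelium, fell from 367 CPM in D0 A to 75.6 to 104 (-1.90 ± 0.19; edgeR, adjusted p = 0.00341), and Ahr, the aryl hydrocarbon receptor gene, rose from 34.2 to 51.6 to 102 (1.54 ± 0.38; edgeR, adjusted p = 0.0451). Rora was called under all 15 alternatives and Ahr under 6, its call lost without any 1 of 7 libraries (edgeR, adjusted p up to 0.103). Within libraries, other BEC-like cells differed from large duct-like BEC in 15 of 24 targets tested, 13 higher and 2 lower, beside 43.3% of all genes. Ccl2 (3.88), Cxcl1 (3.66) and Csf2 (3.37) were among the higher ones on the log2 scale and Pigr (-3.34), the receptor that carries IgA into bile, and Reg3g (-3.01), an antimicrobial lectin, were the lower ones, again as a description.

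In macrophage-like cells 22 targets were tested, 0 were higher and 3 lower, beside 3.51% of all genes called, with a median of -1.02 against 0.05 over all genes. Ccl7 was at 69.3 and 157 CPM at D0 and 7.17 to 63.5 under DDC (-2.20), Mmp13, a collagenase, at 76.5 and 129.9 against 14.8 to 52.3 (-1.58), and Nfkbiz at 606 and 264 against 94.5 to 332 (-1.24). Il1b, a cytokine that with IL-23 drives γδ T cells, fell from 1985 and 4090 CPM at D0 to 392 to 1642 (-1.67 ± 0.37; edgeR, adjusted p = 0.0300). Of the IL-12 family partners, Il27 fell from 8.73 and 9.28 CPM to 1.10 to 2.83 (-2.31 ± 0.37; edgeR, adjusted p = 0.00828) and Ebi3, its partner subunit, from 27.4 and 34.8 to 5.82 to 17.4 (-1.51 ± 0.27; edgeR, adjusted p = 0.0133). Tmem176a and Tmem176b, ion channel genes, were also lower (-1.07 and -1.50) and Il1r1, the IL-1 receptor gene, higher (2.13). All 9 of these calls were lost without D0 B (edgeR, adjusted p = 0.0649 to 0.695), where the difference was -0.47 for Ccl7, -0.59 for Mmp13 and -0.86 for Tmem176b, while each kept its direction under all 19 alternatives. Without the protocol term, the replicate block, 8 of the 9 were lost (edgeR, adjusted p = 0.0553 to 0.293), with Il27 the exception. Over the 19 alternatives Il27 was called under 18, Tmem176b under 17, Ebi3 and Il1b under 16 and Mmp13 under 14. Tmem176a was called under 12, Ccl7 under 11 and Nfkbiz under 8. Il1r1 was called under 14, and its difference ran from 0.29 to 3.41.

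In LSEC-like, neutrophil-like and fibroblast-like cells none of the listed genes was called by edgeR, with 20, 13 and 20 targets tested and medians of -0.01, -0.11 and -0.20. Calls were rare over all genes there, at 0.0389%, 0.0502% and 0%, so the lack of calls is not particular to the targets. In DC-like cells Ccl7 (-3.75) and Ccl2 (-3.59) were called lower and Il1r1 (2.12) higher, beside 0.805% of all genes called. The 2 chemokine calls rest on D0 B, where they were at 79.8 and 6.51 CPM with 0 UMIs in D0 A, and without D0 B the sign turned (6.99 and 5.46; edgeR, adjusted p = 0.584 and 0.743). Il1r1 was called under 8 of 19 alternatives. In T-like cells Csf2, the gene of the cytokine GM-CSF, was at 12.8 and 62.8 CPM at D0 and 0 to 45.5 under DDC (-2.87 ± 0.52; edgeR, adjusted p = 0.0140), and Mmp9 was at 81.1 and 32.5 against 9.92 to 77.9 (-1.50 ± 0.35; edgeR, adjusted p = 0.0447). Without D0 B Csf2 was at 0.22 and Mmp9 at -1.03 (edgeR, adjusted p = 0.972 and 0.546), and 0 genes were called in T-like cells. Without the 3 clusters led by endothelial or natural killer genes Mmp9 was at -1.31 and no longer called (edgeR, adjusted p = 0.0649). Of 20 alternatives Csf2 was called under 12 and Mmp9 under 8. No target was called higher in T-like cells, where 13 were tested and 0.758% of all genes were called.

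Recovery was set beside D19 B, the protocol B library with the diet time nearest to it, without replicates and thus without a test. Of 41 pairs of gene and cell type, 20 had separate exact 95% Poisson intervals, which cover counting error only. The share of all genes with separate intervals between these libraries was not computed, so this count cannot be judged against it. Il12b stood out as higher in STOP, at 3927 against 1200 CPM in mature DC-like and 118 against 4.59 CPM in cDC1-like cells. The mature DC-like level was also above every atlas library, the highest of which was 1914 CPM from 6 cells. The cDC1-like level stood nearer to that of D0 B, a library of the same protocol, at 89.6 CPM. Il12a in pDC-like cells was lower in STOP, at 54.7 against 145 CPM. Il23a was lower in STOP in BEC, at 25.5 against 45.7 CPM, and in neutrophil-like cells, at 139 against 344 CPM, but higher in macrophage-like cells, at 5.21 against 1.40 CPM. The cells lay in different clusters in these libraries. The Cxcl5-led cluster was 13.7% of BEC in STOP and 45.1% in D19 B, with Il23a at 103 and 84.9 CPM within it, and the Mmp9-led cluster was 20.3% and 91.4% of neutrophil-like cells. Il17ra was lower in LSEC-like cells, at 36.2 against 64.7 CPM, in DC-like cells, at 25.4 against 71.4, and in macrophage-like cells, at 43.6 against 62.5. Of DC-like cells 71.7% were cDC1-like and 19.9% cDC2-like in STOP, against 26.7% and 48.0% in D19 B, and within these types Il17ra was at 20.9 against 38.6 and at 55.8 against 110.2 CPM. Il17a was lower in γδT17-like cells, at 513 against 856 CPM, while over all T-like cells it was at 36.9 against 29.6, where 133 of the 367 UMIs in STOP lay in 1 cell. Il17re in large duct-like BEC was at 120.1 against 75.7 CPM, and for Il17rc in BEC (18.7 against 18.6 CPM) the intervals overlapped.

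Between onset and progression, 34 pairs of gene and cell type were compared in the same exact way and 0 passed the adjustment, with Il17ra in LSEC-like cells the lowest in p. Il23a in BEC was at 11.5 ± 7.36 CPM (SD, n = 2) against 35.4 ± 17.2 (n = 3) in protocol B, the protocol with both stages, and in neutrophil-like cells at 125 ± 151 (n = 3) against 207 ± 96.0 (n = 6), with adjusted p = 0.680 and 0.850 by exact permutation. Il23a in DC-like cells was at 1.08 ± 0.414 (n = 4) against 3.37 ± 2.08 CPM (n = 6; exact p = 0.060, adjusted p = 0.680). Il17a in T-like cells was at 8.47 ± 14.3 against 51.4 ± 61.1 CPM (exact adjusted p = 0.680). The smallest p that any pair could reach, 0.0100, becomes 0.340 over 34 pairs, so that no single pair could pass at any size of difference, and the BEC comparison allowed no p under 0.100.

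Genes whose level over the 19 types was most like that of a circuit gene were ranked by correlation among 11788 genes, a description over types that share libraries. Il17a was closest to Myl10 (0.994), 5830411N06Rik (0.987), Cdh10 (0.986) and Il23r (0.985). Il17f was closest to Trgj2 (0.964), a γ chain segment, and Il12b to Apol7c (0.947) and Ccl22 (0.941), a chemokine of mature dendritic cells. Il23a was closest to Chil1 (0.878), a chitinase-like gene, and Cxcl3 (0.869), a neutrophil chemokine. Il12a was closest to A530030E21Rik (0.975), Il17ra to Morc3 (0.867), Il17rc to Nr1d1 (0.942) and Il17re to C1qtnf4 (0.930). Among the circuit genes themselves Il17a and Il17f reached 0.956, Il23r and Il17f 0.941 and Il17rc and Il17re 0.591. Il23r, with 189 UMIs in the atlas, was too sparse to be ranked.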

How the data were processed

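The deposited values are raw UMI counts, 1 per gene symbol and barcode, which the authors made with kallisto on GRCm38 per the labels (versions not given in the sources used here), without normalization or barcode filter. Gene coordinates come from the provided GENCODE annotation and promoters from RefSeq, both GRCm38. The 9 genes, marker lists and gene lists were chosen with earlier results of these data known, and the rule that turns markers into names was revised after clusters had been seen.

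Barcodes with at least 1500 UMIs were kept. Cells were clustered with the Leiden algorithm of igraph 0.11.9 into 61 clusters, and T cells again into 18. A marker counted as detected in at least 10% of cells and at 2-fold the mean of other cells. A name needed 3 such markers and 40% of its list. The γδT17-like and large duct-like names had minimum counts of their own. Tcrg-C1 and Tcrg-V6 are not among the gene symbols of the files and were not used. Doublets were kept, and Scrublet in scanpy 1.11.5 called 6041 cells (6.32%), with the expected rate as threshold in 8 libraries where its own marked under 0.5%.

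Counts were summed per library and type with at least 20 cells (10 for γδT17-like cells). DDC was set against steady state with edgeR 4.0.16 (quasi-likelihood, TMM, filterByExpr, protocol as a term, Benjamini-Hochberg at 0.05) in R 4.3.3, and kinds of T cells and BEC inside each library, which entered as a block. SEs are the fold change over the square root of F, and 95% intervals of fold changes use the t distribution on the degrees of freedom of the test. Single values were tested by exact sign flips over libraries or exact permutation within protocol in scipy 1.17.1. Poisson and binomial intervals cover counting error only. Floors are 3 counts. The gene-wide tests were checked on simulated counts with a log2 change of 2 in 200 genes. Of these changes 43% were called in fibroblast-like cells, 62.5% in BEC and 69% to 93.5% in the other comparisons. Changes of this size can thus be missed. False calls were 2.13% to 6.02% of the calls, highest in BEC. Named genes are the 9 genes, the listed partners and targets that were called, and for the ranking of genes by likeness up to 5 per gene.

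The replicate numbers 1 and 2 are protocols A and B, so the protocol term is the block of same-numbered libraries. Alternatives were DESeq2 1.42.0, no filter, at least 3000 UMIs, Scrublet calls removed, cells gated singly on markers, no protocol term, at least 50 cells, log2(CPM + 10), thinning, leaving out each library and, added after seeing the data, leaving out 3 T cell clusters. The other samples of the study were not analysed here.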

Additional observations from a re-analysis of the deposited data

Results flagged for a closer look

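In 8 of 37 groups of 4 to 6 libraries, 1 library lay far from the others by Dixon's criterion at 95%, where chance marks about 1 in 20 groups. In T-like cells these were Il17a in D5 B, at 29.8 CPM among 4 onset libraries, Il17a in D9 A, at 169 CPM, and Il17f in D9 A, at 23.4 CPM, both among 6 progression libraries, and Il23r in D25 A, at 18.5 CPM. The D9 A and D25 A sums hold 44 and 73 T-like cells, and the values rest on 29, 4 and 4 UMIs. In macrophage-like cells they were Il23a in D9 A, at 6.64 CPM, and Il12b in D9 B, at 9.50 CPM, both among 6 progression libraries. Il12b in BEC stood out in D25 B, at 7.85 CPM. Il17rc in LSEC-like cells was low in D5 B, at 8.0 CPM among 4 onset libraries.

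Il17rc differed in opposite directions between onset and progression in 2 receivers, neither of which passed (exact p = 0.250 in fibroblast-like cells and 0.100 in BEC, adjusted p = 0.680 each). Every progression library of fibroblast-like cells lay above the onset libraries, by 12.0 CPM within protocol (17.8 to 26.4 against 7.04 to 17 CPM), while in BEC the 3 progression libraries of protocol B lay below its 2 onset libraries (-4.66 CPM, progression minus onset). Protocol A had no onset value for BEC, and with its libraries the progression range, 15.4 to 28.0 CPM, spanned the onset values. The difference between the receivers was not tested.

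The clusters that stayed unnamed, which no comparison uses, held 476 UMIs of Il23a, 1777 of Il12b, 495 of Il12a, 14 of Il23r, 227 of Il17a, 44 of Il17f, 5825 of Il17ra, 558 of Il17rc and 65 of Il17re in 13035 cells. Of these, 373 UMIs of Il12a lay in 213 of 1249 cells of 1 cluster, 1101 of Il12b, 247 of Il23a and 155 of Il17a each in 1 other cluster.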

How the results depend on the processing

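Counts of called genes moved most with the setting. In T-like cells 82 genes were called, against 353 with DESeq2, 475 without the filter, 50 at 3000 UMIs, 157 without Scrublet calls, 402 in gated cells, 374 at 50 cells per sum, 261 without the 3 T cell clusters led by endothelial or natural killer genes and 0 to 1807 with 1 library left out (0 without D0 B, 1807 without D0 A). In BEC 767 became, in the same order of settings, 1674, 1191, 168 (Scrublet), 443 (gated) and 165 to 1303 (165 without D25 A), in neutrophil-like cells 3 became 108, 302, 1, 20 and 3 to 81, and in DC-like cells 108 became 515, 351, 27, 18 and 5 to 1614 (5 without D0 B, 1614 without D0 A). In LSEC-like cells 5 became 244, 130, 8 at 3000 UMIs and 4 to 196 (196 without D0 A), in macrophage-like cells 442 became 910 with DESeq2 and 225 to 866, and in fibroblast-like cells 0 became 12, 198, 2 at 3000 UMIs, 2 at 50 cells and 0 to 2. γδT17-like against other T-like cells gave 1216 to 2130 calls around 1840. Same-numbered libraries share only a protocol. Without this replicate block, 7 genes were called in T-like, 27 in DC-like and 73 in macrophage-like cells, the block changed no call of the 9 genes, and of the listed genes 8 calls were lost in macrophage-like, 2 in T-like, 2 in DC-like cells and 1 in BEC. In gated cells 3 neighbouring pairs of types passed in place of 0, Il12b in mature DC- against cDC1-like (896 CPM), Il17ra in monocyte- against cDC2-like (52.6 CPM) and Il17re in BEC- against T-like cells (62.1 CPM), with exact adjusted p = 0.0430 each, and Il17ra in neutrophil- against monocyte-like cells turned to 60.9 CPM. Thinning lowered the shares of cells with both genes to 0.00105% (Il23a, Il12b), 0% (Il12a, Il12b), 0.00209% (Il23r, Il12rb1), 0.0408% (Il17ra, Il17rc), 0.0314% (Il17ra, Il17re) and 0.0147% (Il17a, Il17f), and without Scrublet calls those of the receptor pairs were 1.20% and 0.821%.

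On the log2 scale signs turned as follows. Il12a in DC-like cells was at 0.10 at 3000 UMIs and 0.25 gated. Il23a in macrophage-like cells was at -0.31 with DESeq2, -0.04 without Scrublet calls, -0.09 without D5 B, -0.28 without D9 A and from -1.52 to 1.58 without a D0 library, and Il17rc there was at -0.01 without Scrublet calls and -1.04 to 0.75 over left-out libraries. Leaving out 1 library gave -1.70 to 1.57 for Il12b in macrophage-like cells, 0.00 to 7.12 for Il12b (0.00 without D9 A) and -0.47 to 0.11 for Il17re in BEC, and -0.10 (D3 A) to 0.20 for Il17ra in neutrophil-like cells, with -0.03 without D19 B. In DC-like cells it gave -1.36 to 0.50 for Il12b, -0.85 to 6.28 for Il17rc, -4.39 to 5.46 for Ccl2, -4.57 to 6.99 for Ccl7 (each highest without D0 B) and -0.24 to 0.40 for Il23a, and in T-like cells -3.38 to 0.22 for Csf2. The cause was not tested. DESeq2 no longer called Il17f in γδT17-like cells (3.16) or Il12b between the kinds of BEC (2.92). The other 111 counts and shares stayed within 1.5 times or the interval, and 1134 values of single genes kept sign and call.

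Few cells or libraries stand behind several values. Protocol A holds 27 to 73 T-like cells per library, steady state has 1 library for BEC and fibroblast-like cells, so that D0 A could not be left out there, and D0 B has 14 γδT17-like cells. With protocol as a term, the fitted differences from steady state in BEC and fibroblast-like cells rest on the protocol A libraries.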

Other observations

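Some circuit genes were read where their textbook sources do not lie. LSEC-like cells held 63 UMIs of Il17f in 62 of 24859 cells (0.249%), 17.7% of all UMIs of that gene, at a median depth of 4408 UMIs. None of the 61 atlas cells among them had Cd3e or Trdc, genes of T cells, and 91.8% had Stab2. Of the 24067 atlas cells without Il17f, 0.395% had Cd3e, 0.00831% Trdc and 81.9% Stab2. Medians were 5487 UMIs with Il17f and 4383 without. The T cell genes were so rare here that their absence from 61 cells decides nothing on the source of Il17f. Steady state libraries had 1.98 ± 1.10 CPM (SD, n = 2), onset libraries 0.595 ± 0.590 CPM (SD, n = 4) and progression libraries 0.327 ± 0.238 CPM (n = 6), and the last pair of stages had adjusted p = 0.756 by exact permutation within protocol. A large-vessel endothelium-like cell held 44 UMIs of Il17a, and 2 hepatocyte-like cells held 48 UMIs of Il12b.

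Within BEC, the cluster with the deepest cells (median 27949 UMIs) held 612 of the 729 Il12b UMIs of other BEC-like cells, 483 of them from STOP. Cells with at least 5 of 11 mature DC markers made up 537 of 4522 other BEC-like cells and held 67.9% of their Il12b. Their level was 27.1 CPM against 3.71 in the rest. Among cDC1-like cells 82 of 5253 were such cells and held 12.2% of the Il12b, at 202 CPM against 50.8 in the rest.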
